A study of Mus musculus with 8 samples.

Results

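A set of 9 genes of glucose uptake, glycolysis and mitochondrial substrate handling is described here across all 8 libraries of a mouse islet RNA sequencing study. They are Slc2a2, G6pc2, Pfkl, Pfkm, Pkm2, Pcx, Gpd2, Glud1 and Slc25a1. They were taken as the rows of the deposited table that carry these gene symbols, and they make up 9 of 22632 listed genes. Each was at 13.1 RPM or more in every library, and all 9 passed the filter on low values that left 13347 genes for testing. RPM are reads scaled to the library total, as the authors deposited them.

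The libraries were made from total RNA of islets, the clusters of hormone-producing cells in the pancreas, after depletion of ribosomal RNA. All mice were C57BL/6, and each of the 4 groups had 2 libraries. The groups were Tcf7 -/- at 20 weeks of age on a high-fat diet (45% fat), Tcf7 +/+ at 20 weeks on the same diet, Tcf7 -/- at 8 weeks on a low-fat diet (10% fat), and Tcf7 +/+ at 8 weeks on that low-fat diet. The diets are those of the label for diet, while the treatment text speaks of regular chow beside the high-fat one. When feeding started was not found in these sources. Age and diet changed together, so that their parts in any difference between 20 and 8 weeks cannot be told apart. The labels give no batch, and a batch that went with age could not be told apart from age and diet either. The labels name a littermate wild type as control and give neither the deleted part of Tcf7 nor the cells in which it was lost. Separate animals are not stated for the libraries of a group, and p-values here rest on the spread between these samples alone. Within a group the libraries are numbered 1 and 2 in the order of their records, and a number does not link libraries of different groups.

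In the mouse beta cell, glucose enters through GLUT2, the low-affinity transporter encoded by Slc2a2, and is phosphorylated to glucose 6-phosphate. G6pc2 encodes an islet glucose-6-phosphatase that turns part of this product back into glucose. Phosphofructokinase (Pfkl, Pfkm and Pfkp encode its subunits) commits the sugar to glycolysis, and pyruvate kinase makes pyruvate at its end. Beta cells send much of this pyruvate into mitochondria, both by oxidation through pyruvate dehydrogenase and by carboxylation through pyruvate carboxylase (Pcx). Citrate leaves the mitochondrion through the carrier Slc25a1, and the cytosolic electrons of glycolysis enter by the glycerol phosphate shuttle, of which Gpd2 is the mitochondrial enzyme. TCF-1, the product of Tcf7, is a DNA-binding partner of beta-catenin in Wnt signalling.

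Libraries labelled Tcf7 -/- are called KO below, and those labelled Tcf7 +/+ are called WT. Tcf7, the targeted gene, was not lower in KO. It had 4.56 and 2.56 RPM in KO at 20 weeks, against 1.58 and 0.99 RPM in WT, and 0.51 and 0.52 RPM in KO at 8 weeks, against 0.28 and 0.38 RPM in WT. The log2 fold changes, 0.97 ± 0.22 (SE) at 20 weeks and 0.19 ± 0.22 at 8 weeks, did not pass (limma adjusted p = 0.16 and 1). Reads summed over all of Tcf7 cannot test the loss of 1 stretch of it, so directions between genotypes rest on the labels.

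Depth was 58.7 to 191 M reads a library, of which the members held between 856 (Pfkl) and 285612 (G6pc2) reads in a library. Listed genes took 55.7% to 61.2% of the total at 20 weeks and 41.6% to 51.0% at 8 weeks, and the median log2 fold change of all tested genes was 0.17 at 20 over 8 weeks. Beta cell markers (7 genes) summed to 35100 to 54986 RPM at 20 weeks and 46885 to 54212 RPM at 8 weeks. The insulin gene Ins1 alone averaged 13962 ± 2458 RPM at 20 weeks and 16987 ± 761 RPM at 8 weeks (SD, n = 4 each). In RPM 1 gene of that list was called between the ages, and it was lower, where 37.2% of all tested genes were called and 6.05% were lower. It was Mafa, a beta cell transcription factor, with 3.30 to 18.1 RPM at 20 weeks and 28.2 to 39.9 RPM at 8 weeks (log2 fold change -1.83 ± 0.19, limma adjusted p = 3.4e-07). After median-of-ratios scaling 3 of the 7 were called lower, where 28.2% of all tested genes were. Enzyme genes of acinar cells (6 genes), the exocrine cells around the islets, summed to 5863 to 19654 RPM at 20 weeks and 2149 to 17142 RPM at 8 weeks. The 4 alpha cell markers summed to 1551 to 2871 RPM at 20 weeks, against 3377 to 5335 RPM at 8 weeks, and the 2 genes of cycling cells to 2.09 to 8.23 RPM, against 18.2 to 33.2 RPM. Other lists that did not overlap between the ages were those of delta cells (2 genes, 307 to 418 RPM at 20 weeks, 453 to 647 RPM at 8 weeks), PP cells (1 gene, 382 to 877 and 910 to 1461 RPM) and stroma (3 genes, 1.60 to 3.52 and 3.55 to 19.1 RPM). No marker of any list was listed at 0 in all libraries, and the part of these cell types in the members' values was not tested. In whole islets, fewer cells of a type and less RNA per cell cannot be told apart.

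Promoter sequences are shown for G6pc2 and Slc2a2, the members with the highest levels, and for Slc25a1, the only member called between 20 and 8 weeks in RPM. Each is the 250 bases before the start of transcription, from RefSeq on GRCm38.p6, a build other than the mm9 of the reads, and is written 5′ to 3′ on the gene's strand. The regions are chr2:69219699-69219948 (plus strand) for G6pc2, chr3:28697653-28697902 (plus strand) for Slc2a2 and chr16:17928220-17928469 (minus strand) for Slc25a1. Capitals mark matches to the searched motifs.
G6pc2: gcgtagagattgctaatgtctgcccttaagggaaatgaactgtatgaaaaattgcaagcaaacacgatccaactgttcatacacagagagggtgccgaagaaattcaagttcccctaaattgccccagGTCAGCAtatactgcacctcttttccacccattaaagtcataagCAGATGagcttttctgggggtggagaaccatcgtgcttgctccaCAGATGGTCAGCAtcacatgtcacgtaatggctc
Slc2a2: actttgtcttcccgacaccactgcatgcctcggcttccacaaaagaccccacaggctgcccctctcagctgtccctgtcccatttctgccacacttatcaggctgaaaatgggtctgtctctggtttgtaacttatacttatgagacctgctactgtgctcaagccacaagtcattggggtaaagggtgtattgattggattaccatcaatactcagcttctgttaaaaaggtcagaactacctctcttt
Slc25a1: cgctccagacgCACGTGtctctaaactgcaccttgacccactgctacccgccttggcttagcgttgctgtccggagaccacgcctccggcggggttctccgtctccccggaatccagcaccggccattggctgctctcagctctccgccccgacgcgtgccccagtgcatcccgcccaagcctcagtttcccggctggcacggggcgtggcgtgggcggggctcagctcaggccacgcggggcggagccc

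Sequence motifs, 4 in all, were searched on both strands over windows of the 250 bases before each start. The TCF/LEF core CTTTGA (reverse complement TCAAAG) was in none of the 16 windows of the 9 members, while 13.8% of all 32851 mouse windows held it. The E-box CATCTG (reverse complement CAGATG) was in windows of G6pc2 and Glud1 and in 14.4% of all windows. In G6pc2 it lay at -78 and -34 from the start, on the reverse strand. The Maf half-site TGCTGAC (reverse complement GTCAGCA) was in G6pc2 alone among the members, at -122 and -28 on the reverse strand, and in 3.8% of all windows. The E-box CACGTG, its own reverse complement, was in windows of Pcx, Pfkm and Slc25a1, at -239 in Slc25a1, and in 6.0% of all windows. These are matches of letters only. The capitals in the G6pc2 sequence therefore show CAGATG at 2 places and GTCAGCA at 2, while the Slc2a2 sequence has no match to any of the 4.

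Levels of different genes were compared as RPM per kilobase of merged exons (GENCODE M21), over all 8 libraries. G6pc2 was highest, at 762 ± 127 RPM per kb (SD, n = 8), followed by Slc2a2 at 58.4 ± 7.53. Pkm2 at 29.6 ± 4.33 and Pcx at 20.7 ± 3.58 came next, then Glud1 at 11.04 ± 1.29, Gpd2 at 10.8 ± 1.45, Slc25a1 at 8.05 ± 1.38 and Pfkm at 6.14 ± 0.85. Pfkl was lowest, at 2.66 ± 0.43 RPM per kb. This order depends on the merged exon lengths, which were 6.675 kb in Pfkl, 3.34 kb in Pfkm and 2.164 kb in Slc25a1. Without length, these 3 genes lay closer together, at means of 17.8 RPM (Pfkl), 20.5 RPM (Pfkm) and 17.4 RPM (Slc25a1). The ranges of Pkm2 and Pcx overlapped, although Pkm2 was higher in 8 of 8 libraries. Glud1 was above Gpd2 in only 4 of 8 libraries, and the order of these neighbours is not set beyond their spread. Ranges also overlapped between Gpd2 and Slc25a1 (Gpd2 higher in 7 of 8) and between Slc25a1 and Pfkm (Slc25a1 higher in 8 of 8), while the other neighbours did not overlap. Exons of Gpd2 share 487 bases with A930012O16Rik and those of Pfkm 18 bases with Senp1, both on the other strand, and 341 bases of Pfkm with Gm26513 and 767 of Pkm2 with Gm49759 on the same strand.

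Slc2a2, Pkm2 and Gpd2 each stood above a close relative in these islets. Slc2a1, the ubiquitous glucose transporter GLUT1, had 1.98 ± 0.38 RPM per kb beside the 58.4 of Slc2a2. Pklr, the liver and red cell pyruvate kinase gene, had 1.33 ± 0.14 beside the 29.6 of Pkm2. The row named Pkm2 covers the whole pyruvate kinase gene, so that its M1 and M2 isoforms are not separated. Gpd1, the cytosolic partner of the glycerol phosphate shuttle, had 2.82 ± 0.50 RPM per kb beside the 10.8 of Gpd2. Acly, which cleaves the exported citrate in the cytosol, had 129 ± 15.2 RPM per kb beside the 8.05 of Slc25a1.

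**Figure D1:**
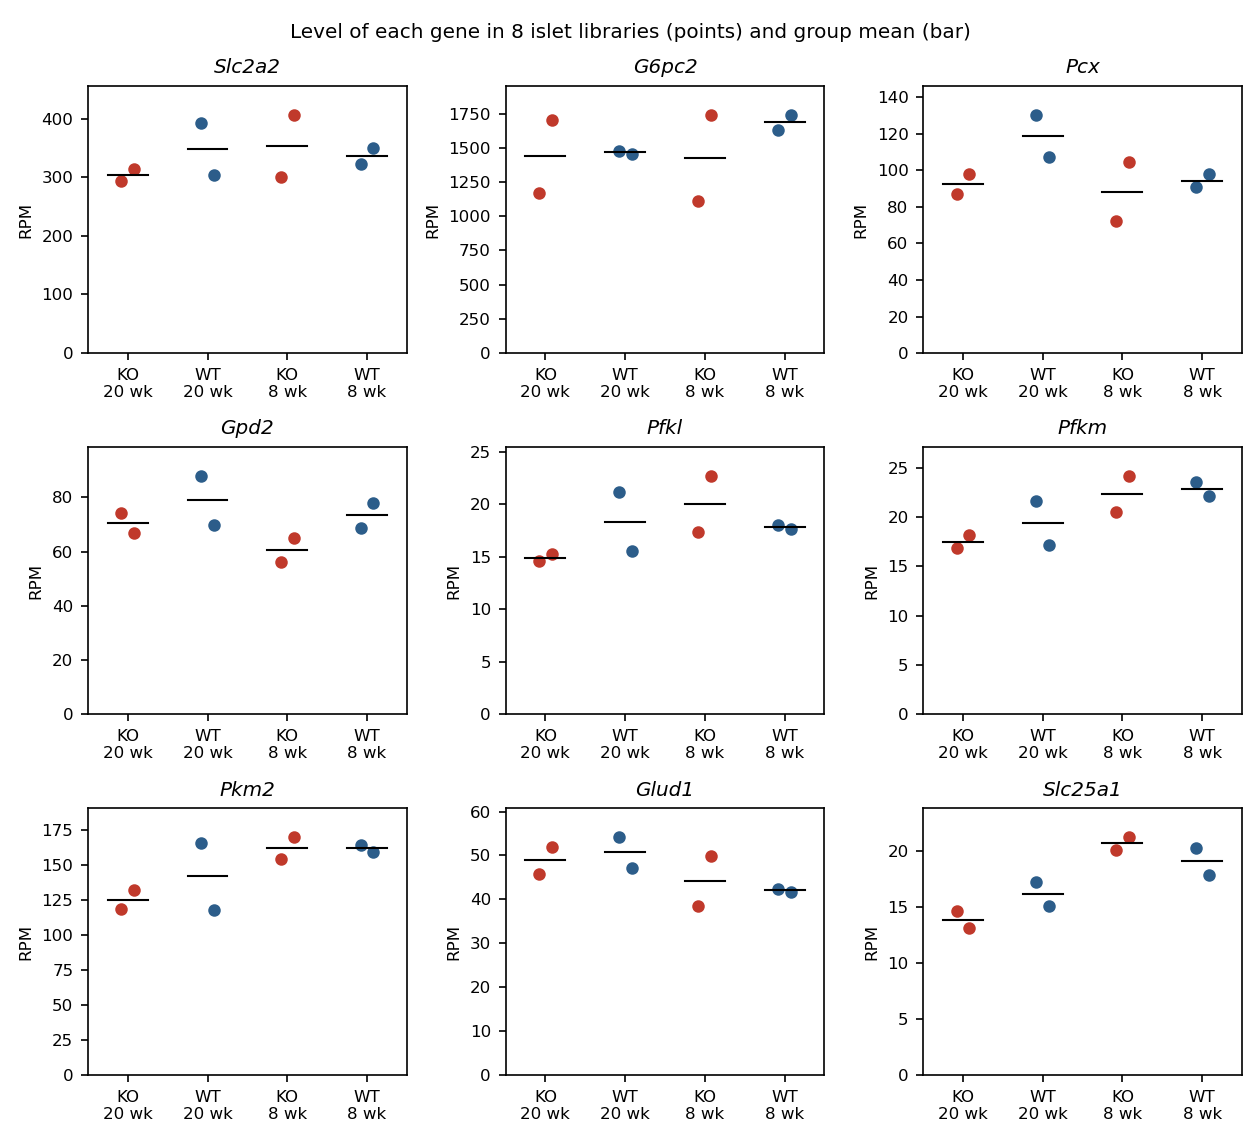
RPM (y axes, each from 0) of the 9 genes in the 4 groups (x axes: KO and WT at 20 and 8 weeks); points are libraries and bars group means. KO and WT points interleave in most panels, and Slc25a1 is the only gene whose 4 libraries at 20 weeks all lie below the 4 at 8 weeks.

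The first question was whether these genes differed with the Tcf7 genotype. None of the 9 passed the test at either age. At 20 weeks limma called 0 members where 0.045% of all 13347 tested genes were called, and at 8 weeks 0 members where the background was 0.21%. Averaged over both ages 0 members were called (background 0.105%), and for the difference between the genotype effects at the 2 ages again 0 (background 0.0674%). No member had an unadjusted limma p under 0.05 in RPM in any of these 4 contrasts, where 4.36% of tested genes at 20 weeks, 3.48% at 8 weeks, 4.25% for the mean and 3.42% for the difference did, and edgeR on the recovered reads also called 0 of 9. Its backgrounds were 0% at 20 weeks, 0.18% at 8 weeks, 0.015% for the mean and 0.0225% for the difference, and at an unadjusted p under 0.05 it held 1 member in 3 of the 4 contrasts, Pcx at 20 weeks and in the mean, and Pfkl in the difference. Over all tested genes the edgeR share at that threshold was 10.6% at 20 weeks, 6.22% at 8 weeks, 9.22% for the mean and 7.44% for the difference, beside 1, 0, 1 and 1 of 9 members. The 95% intervals of the members were 0.85 to 1.71 log2 units wide in RPM at each age. After median-of-ratios scaling of the same libraries they were 0.40 to 1.16 wide, and limma again called 0 of 9.

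Summed markers of other cells also differed between the genotypes, and for acinar cells the direction of the sums changed with age. The acinar list summed to 5863 and 7018 RPM in KO at 20 weeks, against 7072 and 19654 RPM in WT, and to 17142 and 8619 RPM in KO at 8 weeks, against 2149 and 6211 RPM in WT. All KO sums were thus below the WT ones at 20 weeks and above them at 8 weeks. At 20 weeks WT library 1 (7072 RPM) was close to KO library 2 (7018 RPM), and WT library 2 alone stood well apart. For Cpb1 and Cela1, WT library 1 lay between the KO libraries, while Cpa1, Pnlip, Ctrb1 and Cel did not overlap. All 6 acinar genes had an unadjusted limma p under 0.05 at 8 weeks and for the difference between the ages (median -2.62 on the log2 scale), and none was called. The 3 leukocyte markers summed to 18.6 and 18.5 RPM in KO at 8 weeks, against 41.9 and 49.5 RPM in WT. At 20 weeks they summed to 15.1 and 23.7 RPM in KO, against 24.2 and 23.9 RPM in WT. At 8 weeks limma called 2 of them lower in RPM (background 0.21%). Ptprc, the pan-leukocyte antigen CD45, was at -2.04 (limma adjusted p = 0.00011) and stayed called after median-of-ratios scaling and by edgeR. Lyz2, at -1.82 (limma adjusted p = 0.011), was not called under either of these. Beta cell markers summed to 44033 and 54986 RPM in KO at 20 weeks, against 35100 and 40445 RPM in WT, and the 4 duct markers to 24.0 and 35.8 RPM, against 16.3 and 21.1 RPM. With mean acinar expression added to the fit, 0 members were called in each of the 4 genotype contrasts. The part of the other cell types in the members' values was not tested.

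Slc2a2, the glucose transporter, had 294 and 314 RPM in KO at 20 weeks, against 393 and 304 RPM in WT. In the younger mice it had 301 and 407 RPM in KO, against 324 and 349.7 RPM in WT. The groups overlapped at both ages. The log2 fold change of KO over WT was -0.19 (95% interval -0.80 to 0.43) at 20 weeks and 0.06 (-0.56 to 0.68) at 8 weeks. The 20-week value was -0.0022 without WT library 1 and -0.37 without WT library 2.

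G6pc2, the islet glucose-6-phosphatase, had 1170.3 and 1705 RPM in KO at 20 weeks, against 1478 and 1457 RPM in WT. The 8-week values were 1112 and 1743 RPM in KO, against 1632 and 1742 RPM in WT. At each age the 2 KO libraries lay further apart than the WT ones. The log2 fold changes were -0.05 (-0.91 to 0.80) at 20 weeks and -0.28 (-1.13 to 0.58) at 8 weeks, the widest intervals of the 9.

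Pcx, which makes oxaloacetate from pyruvate, had 87.2 and 98.0 RPM in KO at 20 weeks, against 131 and 107 RPM in WT, with no overlap. Its log2 fold change of -0.35 (-0.88 to 0.17) was the lowest of the 9 at 20 weeks and did not pass (limma unadjusted p = 0.18, adjusted p = 1). By edgeR it was -0.32 (unadjusted p = 0.0080, adjusted p = 0.38), and after median-of-ratios scaling -0.31 (limma unadjusted p = 0.0074, adjusted p = 0.33). At 8 weeks Pcx had 72.0 and 105 RPM in KO, against 91.0 and 97.9 RPM in WT, and the groups overlapped. The fold change there was -0.12 on the log2 scale (-0.65 to 0.41).

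Pfkl, the liver-type phosphofructokinase subunit, had 14.6 and 15.3 RPM in KO at 20 weeks, against 21.2 and 15.5 RPM in WT. The younger islets had 17.4 and 22.7 RPM in KO, against 18.0 and 17.6 RPM in WT. Its log2 fold change was -0.26 (-0.72 to 0.19) at 20 weeks and 0.15 (-0.31 to 0.61) at 8 weeks. The 20-week value was -0.052 without WT library 1 and -0.48 without WT library 2. The difference between the ages, -0.42 (-1.06 to 0.23), was the furthest from 0 of the 9 interaction values and did not pass (limma unadjusted p = 0.19, adjusted p = 1), nor did it by edgeR (-0.42, unadjusted p = 0.030, adjusted p = 0.64).

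The remaining 5 members lay between -0.20 (Slc25a1) and -0.05 (Glud1) at 20 weeks, and between -0.27 (Gpd2) and 0.11 (Slc25a1) at 8 weeks, as log2 fold changes. Gpd2 had 56.1 and 65.0 RPM in KO at 8 weeks, against 68.6 and 78.1 RPM in WT. It was the 1 member of 9 whose KO libraries were both lower at 8 weeks, where 5.72% of tested genes showed this. At 20 weeks 3 of 9 did so, Pcx, Pfkl and Slc25a1, where 21.2% of tested genes did. No member was higher in both KO libraries at 20 weeks (background 12.3%) or at 8 weeks (background 7.42%). The median log2 fold change of the 9 was -0.16 at 20 weeks and 0.00 at 8 weeks, beside -0.04 and -0.01 over all tested genes.

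**Figure D2:**
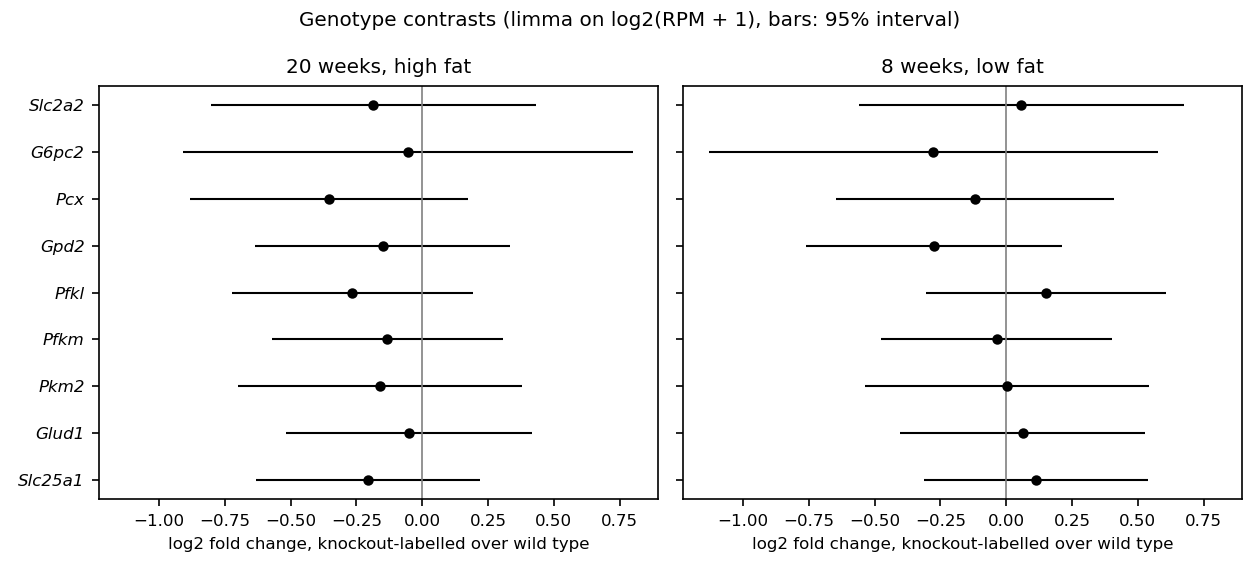
Log2 fold change of KO over WT (x axis) for the 9 genes (rows) at 20 weeks (left) and at 8 weeks (right), from limma on log2(RPM + 1); points are estimates and bars 95% intervals. Every bar crosses 0, and G6pc2 has the widest ones.

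Much of the spread within a group was shared by the members. At 20 weeks WT library 1 was the highest of the 4 libraries for 8 of 9 members and KO library 1 the lowest for 6. At 8 weeks KO library 2 was the highest for 8 of 9 members and KO library 1 the lowest for 8. That last library had the smallest share of reads in listed genes, 41.6%, and 17142 RPM of acinar enzyme genes, the most of the 8-week libraries. The library-wide factor from the median of ratios over all tested genes was 1.17 in WT library 1 at 20 weeks, and 0.79 and 1.09 in KO libraries 1 and 2 at 8 weeks. The part of these properties in the members' values was not tested.

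The second question was how the genes differed between islets of 20-week mice on high fat and of 8-week mice on low fat. In RPM, 1 of 9 members was called, Slc25a1, which was lower at 20 weeks, while 37.2% of all tested genes were called, 31.2% higher and 6.05% lower. Slc25a1, the mitochondrial citrate carrier, had 14.6 and 13.1 RPM in KO and 17.2 and 15.0 RPM in WT at 20 weeks. Its 8-week values were 20.1 and 21.2 RPM in KO and 20.3 and 17.9 RPM in WT. All 4 libraries at 20 weeks were below all 4 at 8 weeks, which held for 8.19% of tested genes. No member had the reverse (background 30.4%).

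Slc25a1 averaged 15.0 ± 1.71 RPM at 20 weeks and 19.9 ± 1.43 RPM at 8 weeks (SD, n = 4 each). Its log2 fold change was -0.39 ± 0.14 (SE; 95% interval -0.69 to -0.09, limma adjusted p = 0.041). In the knockout-labelled libraries alone it was -0.55 (limma adjusted p = 0.062) and in WT alone -0.23 (limma adjusted p = 0.47), and the difference between the 2 did not pass (-0.32, interval -0.92 to 0.28). No member was called within KO (background 22%) or within WT (background 18.6%). The call was lost in 6 of the 8 fits that left out 1 library, each of those at 20 weeks and each WT library at 8 weeks, with log2 fold changes of -0.43 to -0.34 over all 8. It was also lost with the acinar list as a covariate (-0.34, limma adjusted p = 0.12).

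The other 8 members were not called in RPM, and 4 of them depended on the scaling. Pkm2 had 119 and 132 RPM in KO and 166 and 118 RPM in WT at 20 weeks. The 8-week libraries had 155 and 170.5 RPM in KO and 164 and 159.7 RPM in WT. The libraries at 8 weeks stood close together, and of those at 20 weeks only WT library 1 reached their range. Pkm2 averaged 134 ± 22.5 RPM at 20 weeks and 162 ± 6.78 RPM at 8 weeks (SD, n = 4 each; log2 fold change -0.29, limma adjusted p = 0.22).

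Pfkm, the muscle-type phosphofructokinase subunit, had 16.8 and 18.2 RPM in KO and 21.6 and 17.2 RPM in WT at 20 weeks. In 8-week islets the values were 20.5 and 24.2 RPM in KO and 23.6 and 22.1 RPM in WT. Again 1 WT library at 20 weeks lay within the 8-week range. Pfkm averaged 18.4 ± 2.17 RPM at 20 weeks and 22.6 ± 1.67 RPM at 8 weeks (log2 fold change -0.28, limma adjusted p = 0.14). Without KO library 1 at 8 weeks it was called lower (-0.34, limma adjusted p = 0.040).

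Pfkl averaged 16.6 ± 3.05 RPM at 20 weeks and 18.9 ± 2.55 RPM at 8 weeks (log2 fold change -0.18, limma adjusted p = 0.37). Slc2a2 averaged 326 ± 45.1 RPM at 20 weeks and 345 ± 45.8 RPM at 8 weeks (-0.08, limma adjusted p = 0.79), and G6pc2 1453 ± 219 and 1557 ± 301 RPM (-0.09, limma adjusted p = 0.83). In these 3 the difference between the ages was smaller than the SD within an age.

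Of the mitochondrial genes, Glud1, which oxidises glutamate to feed the citrate cycle, had 45.9 and 52.0 RPM in KO and 54.3 and 47.1 RPM in WT at 20 weeks. Those at 8 weeks were 38.6 and 50.0 RPM in KO and 42.4 and 41.7 RPM in WT. At 8 weeks, 3 of the 4 libraries lay below all 4 at 20 weeks. Glud1 averaged 49.8 ± 3.99 RPM at 20 weeks and 43.2 ± 4.84 RPM at 8 weeks (log2 fold change 0.21, limma adjusted p = 0.32).

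Pcx averaged 106 ± 18.5 RPM at 20 weeks and 91.4 ± 14.1 RPM at 8 weeks (log2 fold change 0.21, limma adjusted p = 0.39). Without KO library 2 at 8 weeks it was called higher (0.34, limma adjusted p = 0.048), and without KO library 1 at 8 weeks it was 0.072 (limma adjusted p = 0.70). Gpd2 had 74.3 and 67.0 RPM in KO and 88.1 and 69.8 RPM in WT at 20 weeks. Its mean was 74.8 ± 9.33 RPM at 20 weeks and 67.0 ± 9.11 RPM at 8 weeks (log2 fold change 0.16, limma adjusted p = 0.47).

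RPM were set by library totals, and the share of them in listed genes was larger in every library at 20 weeks. Relative to the median of all tested genes (0.17), Slc25a1 was at -0.56, Pkm2 at -0.46, Pfkm at -0.45, Pfkl at -0.35, G6pc2 at -0.26 and Slc2a2 at -0.25 on the log2 scale. Gpd2 at -0.01, Pcx at 0.04 and Glud1 at 0.04 stood at the median. After median-of-ratios scaling, 5 of 9 members were called lower at 20 weeks and 0 higher, while 28.2% of all tested genes were called lower and 30.4% higher. Their log2 fold changes were -0.58 for Slc25a1, -0.50 for Pkm2, -0.48 for Pfkm, -0.38 for Pfkl and -0.29 for Slc2a2 (limma adjusted p of 0.0017 to 0.019).

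edgeR with TMM scaling on the recovered reads called the same 5 genes lower, where 29.9% of tested genes were called lower and 28.8% higher. So did scaling to an equal sum of listed genes, where 38.9% were called lower and 19% higher. Within KO, 5 members were called after median-of-ratios scaling (background 45.1%), 4 with an equal sum (background 40.7%) and 5 by edgeR (background 45.1%). Within WT these counts were 2 (background 38.1%), 3 (background 40.1%) and 3 (background 37.9%). The scaling thus decided the balance of calls over the whole table, 4164 higher and 807 lower in RPM, 4060 and 3764 after median-of-ratios scaling, 3842 and 3988 by edgeR. Among the members, Slc25a1, Pkm2, Pfkm, Pfkl, Slc2a2 and G6pc2 were on the lower side under every scaling. Pcx, Gpd2 and Glud1 changed sign with the scaling and were called under none of these scalings.

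After median-of-ratios scaling, 4 of 9 members had all libraries at 20 weeks below all at 8 weeks, where 25.7% of tested genes did, and none had the reverse (background 27.7%). Slc2a2 had 283.7 to 335 scaled RPM at 20 weeks, against 357 to 381 at 8 weeks. Pkm2 had 116 to 142, against 157 to 195, and Pfkm 16.4 to 18.4, against 22.2 to 26.6. Slc25a1 had 11.8 to 14.8, against 18.2 to 25.4. Glud1 was the flattest, at 46.2 ± 0.64 scaled RPM at 20 weeks and 46.3 ± 2.76 at 8 weeks (SD, n = 4 each).

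**Figure D3:**
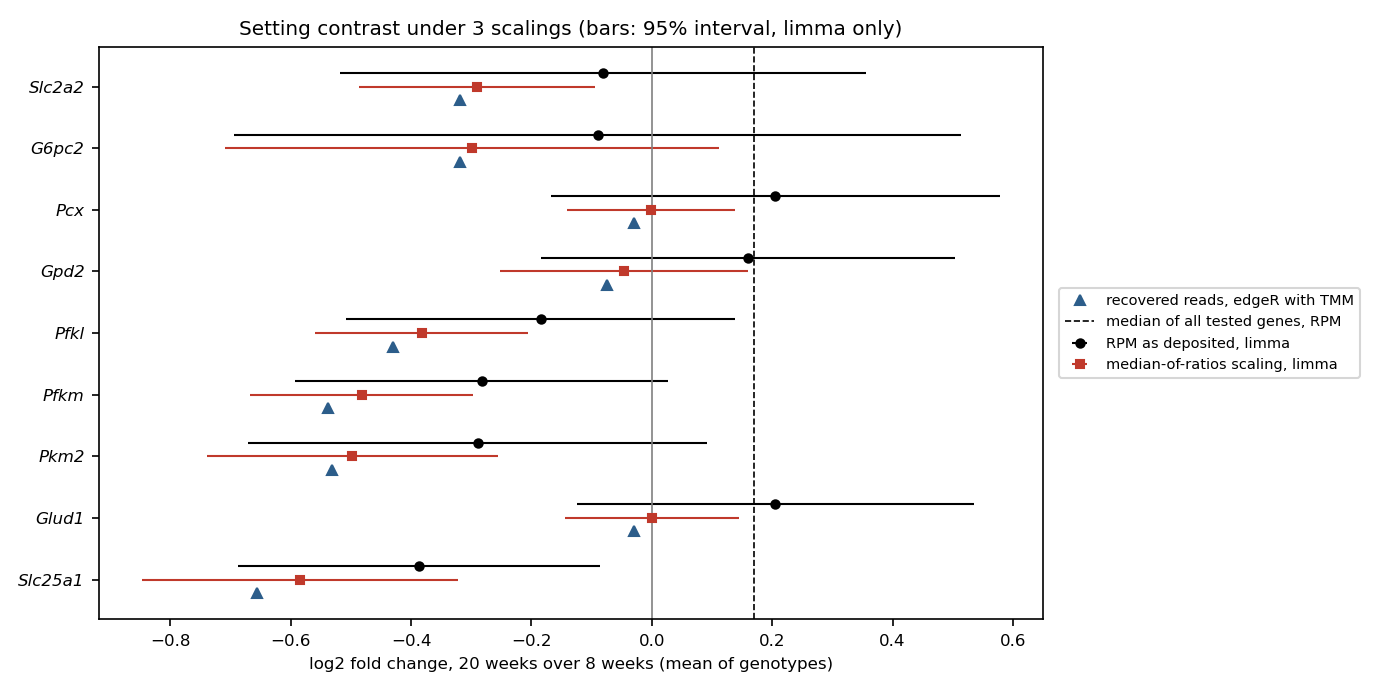
Log2 fold change of 20 weeks over 8 weeks, mean of both genotypes (x axis), for the 9 genes (rows) as deposited in RPM (circles), after median-of-ratios scaling (squares) and by edgeR on recovered reads (triangles); bars are 95% intervals of limma, and the dashed line is the median of all tested genes in RPM, 0.17. The scaled values lie to the left of the RPM ones for every gene, and the bars of Slc25a1 lie below 0 on both limma scales.

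A ratio of 2 genes in the same library does not depend on its scaling. In all, 9 ratios of a member to a partner of its step were compared between the ages over 4 libraries each, by a two-sided exact permutation test whose smallest possible p is 0.029. None passed after adjustment over the 9. Pfkp over Pfkl had log2 ratios of 0.82 and 0.66 in KO and 0.31 and 0.44 in WT at 20 weeks. At 8 weeks they were -0.33 and -0.44 in KO and -0.27 and -0.11 in WT. The ages did not overlap, and the mean differed by 0.85 (0.56 ± 0.23 at 20 weeks, -0.29 ± 0.14 at 8 weeks, exact permutation p = 0.029, adjusted p = 0.13).

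Pfkp, the platelet-type subunit, thus took 18.5 ± 1.87% of the summed phosphofructokinase RPM per kb at 20 weeks and 10.7 ± 0.60% at 8 weeks (SD, n = 4 each). Pfkm took 56.2 ± 0.98% at 20 weeks and 62.9 ± 1.68% at 8 weeks, and Pfkl 25.2 ± 1.64% and 26.3 ± 1.73%. The order of these shares depends on the merged exon lengths, 13.4 kb for Pfkp, 6.675 kb for Pfkl and 3.34 kb for Pfkm. In RPM, without length, Pfkp averaged 24.3 at 20 weeks, against 18.4 for Pfkm and 16.6 for Pfkl. At 8 weeks the means were 15.4 RPM for Pfkp, 22.6 RPM for Pfkm and 18.9 RPM for Pfkl. Pfkm over Pfkl differed by -0.10 (exact permutation p = 0.26), within the spread. Exons of Pfkp share 748 bases with Pitrm1 on the other strand, which stood at 28.2 RPM at 20 weeks and 30.7 RPM at 8 weeks, and without strand their reads cannot be told apart.

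Gpd1 over Gpd2, the cytosolic over the mitochondrial enzyme of the glycerol phosphate shuttle, had log2 ratios of -3.54 and -3.25 in KO and -3.37 and -3.33 in WT at 20 weeks. At 8 weeks they were -2.45 and -2.66 in KO and -3.02 and -3.14 in WT. The ages did not overlap, and the mean difference was -0.56 (exact permutation p = 0.029, adjusted p = 0.13). It was -0.84 in KO alone and -0.27 in WT alone, and the difference between these was not tested.

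For uptake, G6pc2 over Slc2a2 was level between the ages, with log2 ratios of 2.15 ± 0.24 at 20 weeks and 2.16 ± 0.21 at 8 weeks (difference -0.01, exact permutation p = 1). Slc2a1 over Slc2a2 differed by 0.20 (exact permutation p = 0.17) and Pklr over Pkm2 by 0.30 (exact permutation p = 0.086). Without strand, reads of Pklr and Hcn3 in their shared exon bases cannot be told apart. In mitochondria, Pcx over Pdha1, the carboxylating over the oxidising entry of pyruvate, had log2 ratios of 0.90 ± 0.24 at 20 weeks and 1.16 ± 0.17 at 8 weeks (difference -0.26, exact permutation p = 0.17). Glud1 over Got2, the mitochondrial aspartate aminotransferase, differed by 0.14 (exact permutation p = 0.057) and Slc25a1 over Acly by -0.33 (exact permutation p = 0.086).

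**Figure D4:**
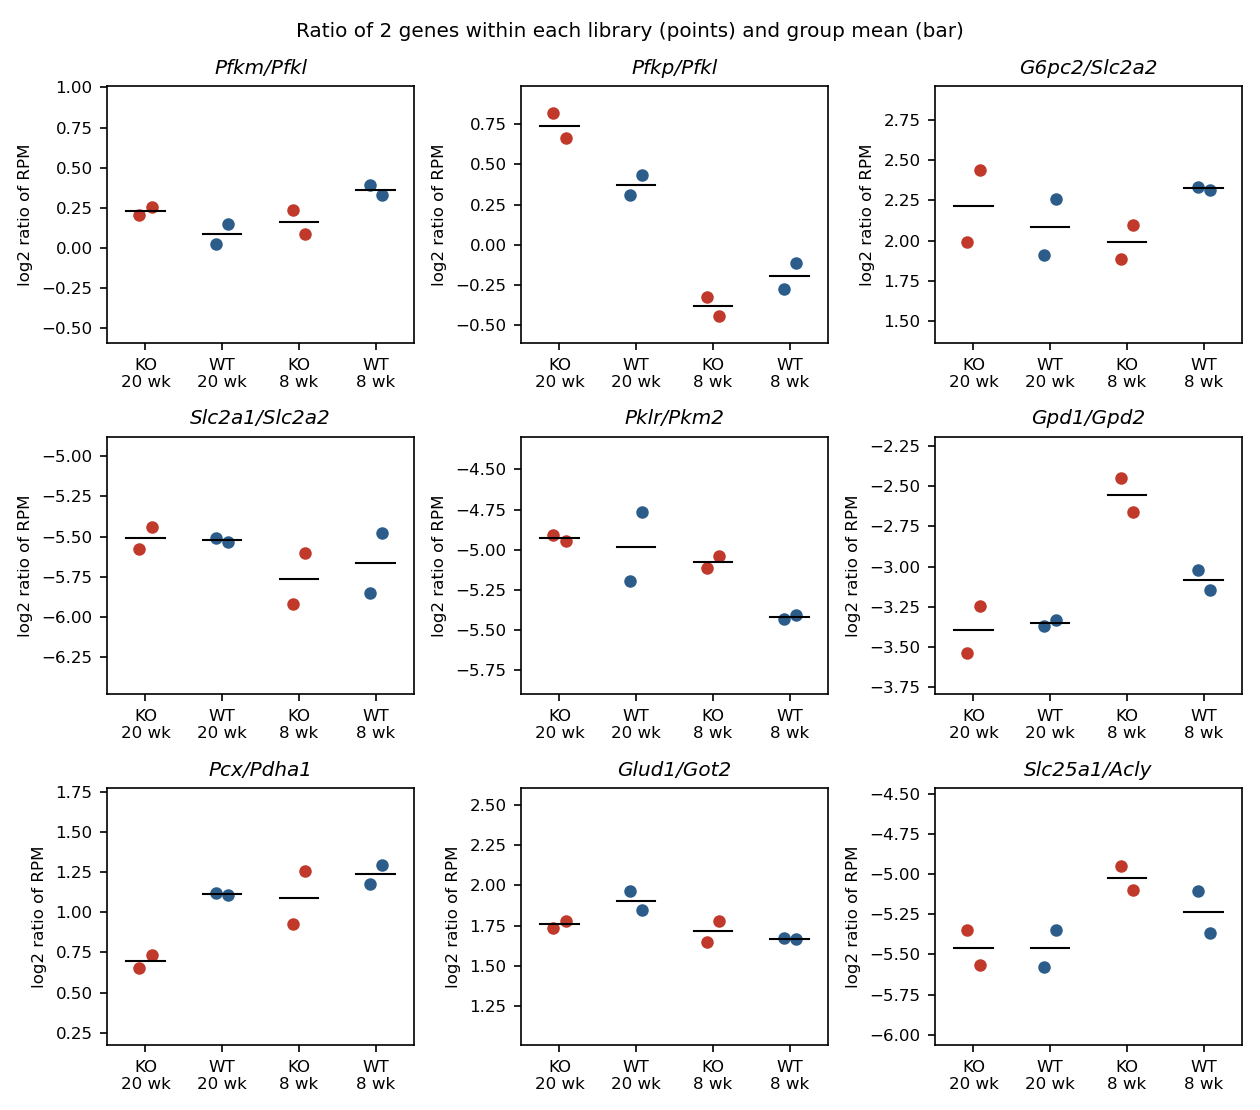
Log2 ratio of the RPM of 2 genes within a library (y axes, all spanning 1.6 units) in the 4 groups (x axes: KO and WT at 20 and 8 weeks); points are libraries and bars group means. Pfkp over Pfkl is above 0 in all libraries at 20 weeks and below 0 in all at 8 weeks, and Gpd1 over Gpd2 is lower in every library at 20 weeks than in any at 8 weeks.

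A further 3 ratios between members were looked at after their values were seen, and are given with no test. Slc25a1 over Pcx was -2.81 ± 0.16 at 20 weeks and -2.19 ± 0.26 at 8 weeks on the log2 scale (SD, n = 4 each). Pfkm over Pcx differed by -0.50 and Pfkl over Glud1 by -0.40. Over the 8 libraries, log2(RPM + 1) of Pfkm and Pkm2 had a Pearson r of 0.97, and Slc2a2 and Pfkl one of 0.92, while Glud1 and Slc25a1 had -0.43. The libraries share depth and composition across genes, so these are descriptions only.

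Among 7173 genes with a mean of 10 RPM or more, those most like Slc2a2 over the 8 libraries were Usp19 (Pearson r = 0.99), Dvl1 (0.99) and Dhx38 (0.99). Those most like G6pc2 were 6720456B07Rik (0.97), Ssu72 (0.95) and Vdac3 (0.94). Those most like Pcx were Heatr6 (0.99), Eftud2 (0.99) and Ankmy2 (0.99).

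The pathways around the members were followed in 6 lists of genes. For genotype and its difference between the ages, 0 genes of these lists were called by limma, by limma after median-of-ratios scaling or by edgeR. Of their 91 tested genes, 2 at 20 weeks, 3 at 8 weeks, 5 for the mean and 4 for the difference had an unadjusted limma p under 0.05, beside 4.36%, 3.48%, 4.25% and 3.42% of all tested genes in the same contrasts. Between the ages genes of the lists were called in both directions. The counts below are read beside the background over all tested genes, 31.2% higher and 6.05% lower in RPM, 30.4% higher and 28.2% lower after median-of-ratios scaling, and 28.8% higher and 29.9% lower by edgeR. Slc5a2, the renal sodium-glucose transporter SGLT2, had 228 and 264 reads in KO and 825 and 313 reads in WT at 20 weeks. At 8 weeks it had 0 and 0 reads in KO and 0 and 2 reads in WT (limma adjusted p = 2.7e-11). It shares 597 exon bases with BC017158 on the other strand, which stood at 17.4 RPM at 20 weeks and 17.6 RPM at 8 weeks.

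Of the glucose transport and glucose-6-phosphatase relatives, 13 of 15 were tested, and 3 were called higher and 3 lower at 20 weeks (median log2 fold change 0.10, all tested genes 0.17). After median-of-ratios scaling 3 were higher and 4 lower, and by edgeR also 3 and 4. Beside Slc5a2, the myo-inositol cotransporter Slc2a13 (95.3 ± 20.0 RPM at 20 weeks, 36.2 ± 11.3 RPM at 8 weeks) and the transporter Slc2a12 (2.37 ± 0.52 and 0.45 ± 0.14 RPM) rose. Slc2a12 shares 407 exon bases with Tbpl1 on the other strand. The neuronal-type transporter Slc2a3 fell to 3.41 ± 0.51 RPM at 20 weeks, against 5.14 ± 0.64 RPM at 8 weeks (log2 fold change -0.48), a call lost without WT library 1 at 8 weeks or KO library 1 at 20 weeks.

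Of the other glycolysis genes, 21 of 22 were tested, with 4 called higher and 3 lower (median 0.10). After median-of-ratios scaling the counts were 4 and 7, and by edgeR 3 and 7. The lactate dehydrogenase genes went opposite ways, Ldhb with a log2 fold change of 0.71 and Ldha with -0.61. Ldha, which beta cells are known to keep low, had 1.74 ± 0.44 RPM at 20 weeks and 3.19 ± 0.58 RPM at 8 weeks. The enolase gene Eno1 fell by 0.67 and Pfkp rose by 0.62 on the log2 scale. All 4 kept their calls whichever library was left out.

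Of the 13 genes of pyruvate entry to mitochondria, 3 were called higher and 0 lower (median 0.14), a share of higher genes below the background of 31.2%. They were Pdk3 (log2 fold change 0.59) and Pdk2 (0.49), kinases that switch pyruvate dehydrogenase off, and Pdha1 (0.46), a subunit of that enzyme. After median-of-ratios scaling 2 were higher and 4 lower, as by edgeR. Pdha1 lost its call in 5 and Pdk2 in 2 of the 8 fits without 1 library, and Pdha1 shares 603 exon bases with Map3k15 on the other strand (248 RPM at 20 weeks, 178 RPM at 8 weeks). Pdk2 was not called after median-of-ratios scaling or by edgeR, and none of the 3 was called with an equal sum of listed genes.

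Of the 17 citrate cycle genes, 2 were called higher and 4 lower in RPM (median -0.11). After median-of-ratios scaling it was 2 and 12 of the 17, where 30.4% of all tested genes were higher and 28.2% lower, and by edgeR 2 and 13 (background 28.8% and 29.9%). Suclg2, a subunit of the GTP-forming succinyl-CoA ligase, rose (53.6 ± 4.84 RPM at 20 weeks, 29.7 ± 5.49 RPM at 8 weeks, log2 fold change 0.84). Fumarase, Fh1, fell by 0.55, and the succinate dehydrogenase subunits Sdhb and Sdhc each fell by 0.40 on the log2 scale. The calls of Sdhb and Sdhc were lost in 6 and that of Fh1 in 3 of the 8 fits without 1 library, and all 3 were lost with the acinar list as a covariate.

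Of the 19 genes of shuttles, anaplerosis and export, 6 were called higher and 0 lower (median 0.06), near the background of 31.2% higher. After median-of-ratios scaling the counts were 5 and 6, and by edgeR 5 and 7. The glutamate carrier Slc25a18 had 6.16 ± 3.36 RPM at 20 weeks and 0.12 ± 0.08 RPM at 8 weeks (log2 fold change 2.59). The malic enzymes Me3 (1.53) and Me1 (0.85), which make pyruvate from malate, and the cytosolic aspartate aminotransferase Got1 (0.63) also rose. Me3 had 24.7 ± 3.16 RPM at 20 weeks and 8.32 ± 3.03 RPM at 8 weeks. Exons of Slc25a18 share 32 bases with Atp6v1e1, and those of Me3 569 bases with A230065N10Rik, which averaged 0.56 RPM at 20 weeks and 0.34 RPM at 8 weeks, both on the other strand. Of the 8 pentose phosphate genes 0 were called higher and 1 lower (0 and 4 after median-of-ratios scaling, 0 and 5 by edgeR). It was Taldo1, which fell by 0.56 on the log2 scale, a call lost without KO library 1 at 20 weeks.

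**Figure D5:**
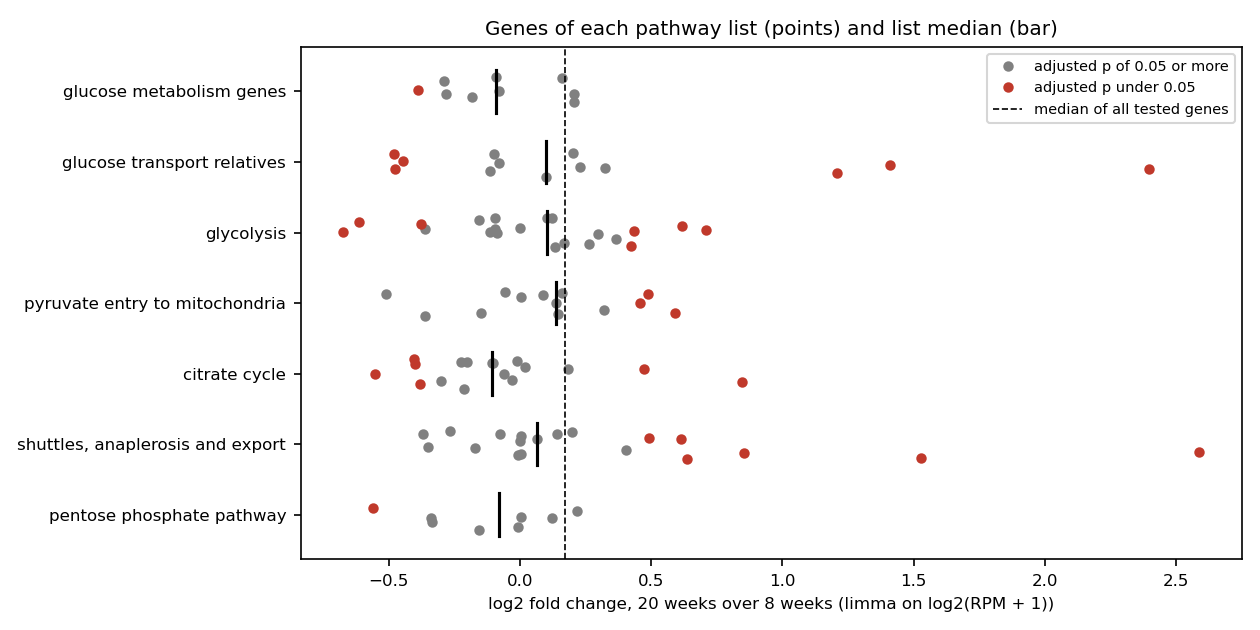
Log2 fold change of 20 weeks over 8 weeks in RPM (x axis, limma on log2(RPM + 1)) for the tested genes of the 9 described and of 6 pathway lists (rows); points are genes, red where the adjusted p is under 0.05, bars are list medians and the dashed line is the median of all tested genes, 0.17. The 9 genes lie between -0.39 and 0.21, while single genes of the transport and shuttle lists reach 2.40 and 2.59.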

How the data were processed

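RNA of mouse islets was sequenced in 8 libraries. Per the submitters' processing notes, the reads passed through CASAVA 1.8, FastQC and TopHat 1.4.1 with the build mm9. The counting tool, gene annotation and use of strand were not given in any source used here. The values are RPM as deposited by the authors, whole multiples of 1 read in 100% of cases (tolerance 0.01 of a read). limma 3.58.1 (R 4.3.3) was fitted with a mean-variance trend to log2(RPM + 1), which understates changes of low genes, over the 13347 genes that reached 1 RPM in 2 libraries or more. All 4 groups entered 1 fit with 4 residual degrees of freedom. Adjustment was by Benjamini-Hochberg over all tested genes, and an adjusted p under 0.05 was a call. Intervals are 95% from limma. edgeR 4.0.16 (quasi-likelihood, TMM) on recovered reads was an alternative. Scripts were tested on simulated data. Exon lengths and overlaps came from GENCODE M21, matching 91.7% of identifiers. Where a symbol was repeated (135 symbols), its row of highest mean stood for it. The members and lists were chosen with earlier results of these data known. Named genes are the members, Tcf7, ratio partners, up to 4 called genes a list with the smallest adjusted p, and the 3 genes most like Slc2a2, G6pc2 and Pcx. Mafa and other single cell type markers were named after their values were seen. Libraries numbered 1 and 2 were not paired, since those numbers follow record order.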

Additional observations from a re-analysis of the deposited data

How the results depend on the processing

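Alternatives were 2 scalings (median of ratios, and an equal sum of listed genes), edgeR, a pseudocount of 0.1, a filter at 5 RPM or none, limma without its trend, fits of the compared libraries alone, the acinar list as a covariate, a threshold of 0.10, and the removal of each library in turn. The count of 0 members called between genotypes held under each. The count of 0 ratios past adjustment shows no stability, since the smallest exact p of 0.029 leaves little room after adjustment over 9 and scaling does not move a ratio. Where leaving out 1 library left a group with 1, that library was assumed to vary like the others. No paired analysis was possible because the labels give no replicate numbers shared between groups. Each member had 856 reads or more in every library. Whether depth or the number of libraries set the width of the intervals was not tested.

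Between 20 and 8 weeks, the 1 member called in RPM became 5 under median-of-ratios scaling, 5 with an equal sum, 5 by edgeR and 0 with the acinar covariate, and 0 to 2 without 1 library. In the KO, 0 became 5 (median of ratios), 4 (equal sum), 5 (edgeR) and 1 (threshold of 0.10), and 0 to 1 without 1 library. In wild type, 0 became 2 (median of ratios), 3 (equal sum) and 3 (edgeR). At 20 over 8 weeks, log2 fold changes that turned sign were those of Pcx (-0.0015 by median of ratios, -0.18 with an equal sum, -0.030 by edgeR), Gpd2 (-0.046, -0.22 and -0.075) and Glud1 (-0.18 with an equal sum, -0.029 by edgeR). Between genotypes at 20 weeks, an equal sum gave G6pc2 0.031 and Glud1 0.035. At 8 weeks it gave Slc2a2 -0.0036 and Pkm2 -0.059, and the acinar covariate gave Pcx 0.11 and Pfkm 0.21. None of these turned values was called. The shift of all genes between scalings is given above, and the cause of the other changes was not tested.

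Without 1 library, log2 fold changes that could turn sign had these ranges. At 20 over 8 weeks, G6pc2 ranged from -0.25 to 0.072 and Slc2a2 from -0.19 to 0.027. Between genotypes at 20 weeks, G6pc2 ranged from -0.33 to 0.22, Glud1 from -0.15 to 0.052, Gpd2 from -0.32 to 0.015, Pfkm from -0.29 to 0.022 and Pkm2 from -0.40 to 0.083. Between genotypes at 8 weeks, the ranges were -0.60 to 0.048 for G6pc2, -0.12 to 0.24 for Glud1, -0.39 to 0.15 for Pcx, -0.034 to 0.34 for Pfkl, -0.15 to 0.079 for Pfkm, -0.068 to 0.073 for Pkm2 and -0.16 to 0.28 for Slc2a2. Without a turn of sign, the 20-week genotype value of Pfkl ranged from -0.48 to -0.052 and that of Slc2a2 from -0.37 to -0.0022, and Pcx at 20 over 8 weeks from 0.072 to 0.34. The G6pc2 to Slc2a2 log2 ratio differed between ages by -0.10 to 0.072.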
